A study of Yarrowia lipolytica with 9 samples.

Results

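Transcripts whose level set the strain yl_11 apart were described in RNA sequencing data of 3 engineered strains of Yarrowia lipolytica, an oil-accumulating yeast. The members were selected on their measured levels in all 9 libraries, and 22 of 6366 features met the rule, 12 higher and 10 lower in yl_11 than in both other strains. The rule took features with a RefSeq transcript accession, a coding length above 300 and below 4000 bp and a mean level of 10 to below 1000 CPM (counts scaled to the library total), which left 4447 features. On log2 CPM, with 0.5 added to each count, the yl_11 mean had to differ from the yl_10 mean and from the yl_12 mean by at least 0.3 in the same direction. The means of yl_10 and yl_12 had to differ by less than 0.2, and all 3 yl_11 libraries had to lie beyond the other 6. The rule therefore fixed the direction, the minimum size and the separation of the libraries, and the values given for the members are a description without a test.

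The groups were yl_11, yl_10 and yl_12, with 3 libraries each. Per the labels, every strain was derived from Y. lipolytica strain ATCC 201249, was transformed with heterologous genes and was grown in flasks for 72 h at 28 °C and 250 rpm. Which genes were introduced, how many clones a strain stands for and which strain is a parent or control were not stated in the labels, so yl_11 was set against each of the other strains in turn. The labels name no separate cultures behind the 3 libraries of 1 strain, and their spread may be technical. Library totals ranged from 7035777 to 16424183 counts, and no member had fewer than 78 counts in any library. The libraries yl_11 replicate 1, yl_10 replicate 3 and yl_12 replicate 3 stood apart, each within its strain. Over the 4447 features they left their strain means in the same way, with a pairwise r of 0.40 to 0.66. Applied to the other 6 libraries alone, the rule found 8 higher features, 6 of them among the 12, and 39 lower features, 7 of them among the 10.

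Yarrowia lipolytica stores carbon as lipid and makes much acetyl-CoA, the building block of both fatty acids and isoprenoids. Lycopene, the red carotenoid that the series title names as end product, is formed from isoprenoid precursors by enzymes of introduced carotenoid genes. The reference table pairs transcripts with locus tags and gives no product names, so no function is stated for any member. A locus tag was found for 21 of the 22 members, and XM_501751.1 had none.

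Members were few and their differences small. They made up 0.495% of the features in the window, and none differed from both strains by more than 1 on the log2 scale. A difference above 0.5 from both was found for 4 members, 3 of them higher and 1 lower in yl_11. Folds over the mean of the other strains (taken on the log scale) ran from 1.24 to 1.89 (median 1.31) in the higher members and from 0.675 to 0.768 (median 0.751) in the lower ones. The median difference over all features of the window was -0.02 for yl_11 minus yl_10 and 0.03 for yl_11 minus yl_12. The same rule with another strain in place of yl_11 found 87 features for yl_10, 71 higher and 16 lower, and 142 for yl_12, 34 higher and 108 lower. The smaller strain difference of a feature had a similar median in each case, 0.372 for yl_11, 0.385 for yl_10 and 0.401 for yl_12 on the log2 scale. These counts and medians were not tested against each other.

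**Figure D1:**
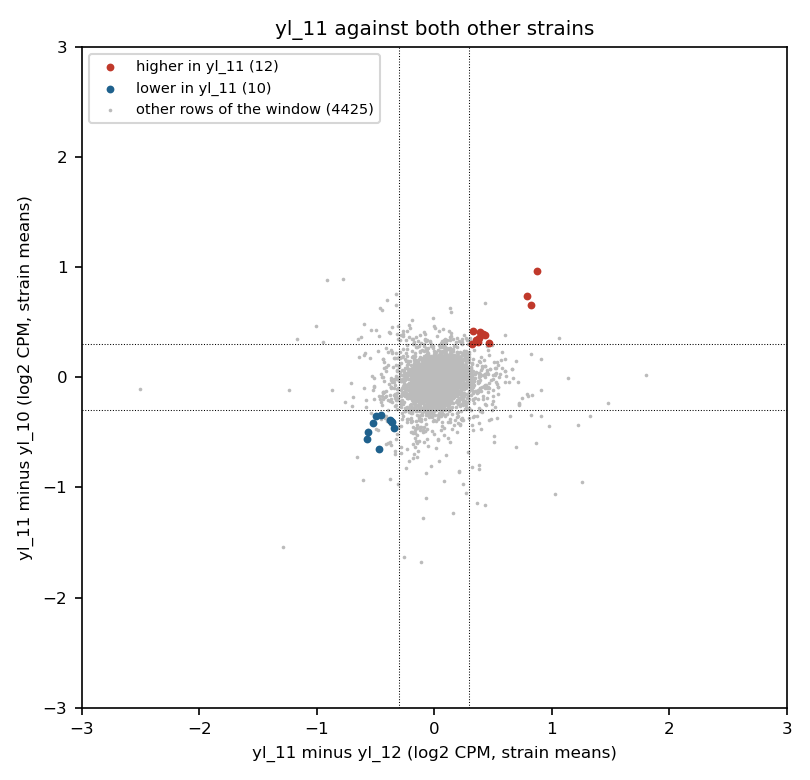
Differences of strain means in log2 CPM, yl_11 minus yl_12 on the horizontal axis and yl_11 minus yl_10 on the vertical axis, for the 4447 features of the window. Dotted lines mark 0.3 on each side of 0. The 12 higher members sit in the upper right and the 10 lower ones in the lower left, most of them close to the lines.

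The higher members were led by 3 transcripts. YALI1_C25128g (XM_501957.1, coding length 1602 bp) had 129, 121 and 191 CPM in the yl_11 libraries, against 75.2, 86.3 and 61.8 CPM in yl_10 and 93.2, 98.1 and 52.4 CPM in yl_12. Its mean was 147 ± 39 CPM in yl_11, 74.4 ± 12 CPM in yl_10 and 81.2 ± 25 CPM in yl_12 (SD, n = 3 each). It showed the largest differences of the higher members, 0.96 from yl_10 and 0.88 from yl_12 on the log2 scale, and also the widest spread, with yl_11 replicate 3 far above the other 2 yl_11 libraries and yl_12 replicate 3 far below its own strain. Both other yl_12 libraries exceeded all 3 yl_10 libraries, and without yl_12 replicate 3 this transcript no longer met the rule.

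YALI1_B00133g (XM_500336.1, 1572 bp) had 131, 124 and 127 CPM in yl_11, against 79.1, 87.2 and 64.8 CPM in yl_10 and 71.0, 75.1 and 74.2 CPM in yl_12. The yl_11 libraries were close together and 0.51 above the nearest other library on the log2 scale, and the strain differences were 0.73 and 0.79. YALI1_B00049g (XM_500334.1, 531 bp) had 41.2, 40.7 and 36.5 CPM in yl_11, against 24.5, 25.0 and 25.4 CPM in yl_10 and 24.4, 20.7 and 21.6 CPM in yl_12. Its gap of 0.52 was the widest of all 22 members, with differences of 0.65 from yl_10 and 0.83 from yl_12, or 5.24 times the largest SD within a strain for the smaller of them.

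The other 9 higher members differed from the mean of both strains by 1.24-fold to 1.33-fold. The most abundant transcript of the set per length was YALI1_B10635g (XM_500629.1, 768 bp), at 350 ± 8.3 FPKM (fragments scaled to length and library total, as deposited) in yl_11, 283 ± 20 FPKM in yl_10 and 254 ± 6.5 FPKM in yl_12. In CPM its yl_11 libraries had 263, 276 and 268, against 217, 233 and 202 in yl_10 and 193, 201 and 191 in yl_12, and the groups did not overlap. Among the higher members XM_501751.1 (615 bp) followed, at 161 ± 7.6 FPKM in yl_11, 124 ± 27 FPKM in yl_10 and 122 ± 22 FPKM in yl_12. Its 101, 101 and 93.4 CPM in yl_11 stood against 86.8, 85.0 and 57.4 CPM in yl_10 and 65.3, 69.1 and 90.5 CPM in yl_12, so that yl_12 replicate 3 came within 0.05 of the lowest yl_11 library on the log2 scale. In this transcript the smaller strain difference was 1.17 times the largest SD within a strain, the lowest such ratio among the members.

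The remaining higher members were of moderate or low level. YALI1_B23237g (XM_501037.1) had 106 ± 3.8 CPM in yl_11, against 80.3 ± 12 CPM in yl_10 and 81.6 ± 12 CPM in yl_12. YALI1_A08436g (XM_499878.1) had 42.1 ± 1.3 CPM in yl_11, against 33.8 ± 2.4 CPM in yl_10 and 32.5 ± 1.6 CPM in yl_12. YALI1_F04379g (XM_504935.1) had 37.7 ± 3.2 CPM in yl_11, against 29.0 ± 3.8 CPM in yl_10 and 28.0 ± 3.0 CPM in yl_12. In these 3 transcripts the other strains lay within 0.06 of each other on the log2 scale.

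YALI1_F03120g (XM_504885.1) had 36.2 ± 1.8 CPM in yl_11, against 28.5 ± 1.6 CPM in yl_10 and 28.4 ± 2.0 CPM in yl_12. YALI1_F24126g (XM_505565.1), the shortest member at 321 bp, had 36.0 ± 1.3 CPM in yl_11, against 28.1 ± 1.6 CPM in yl_10 and 27.8 ± 3.4 CPM in yl_12. YALI1_E25541g (XM_504231.1, 366 bp) had 26.6 ± 1.3 CPM in yl_11, against 21.6 ± 0.82 CPM in yl_10 and 21.2 ± 0.89 CPM in yl_12. The scarcest of the higher members was YALI1_E05681g (XM_503555.1), at 16.9 ± 0.93 CPM in yl_11, 12.6 ± 1.5 CPM in yl_10 and 13.4 ± 0.31 CPM in yl_12.

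**Figure D2:**
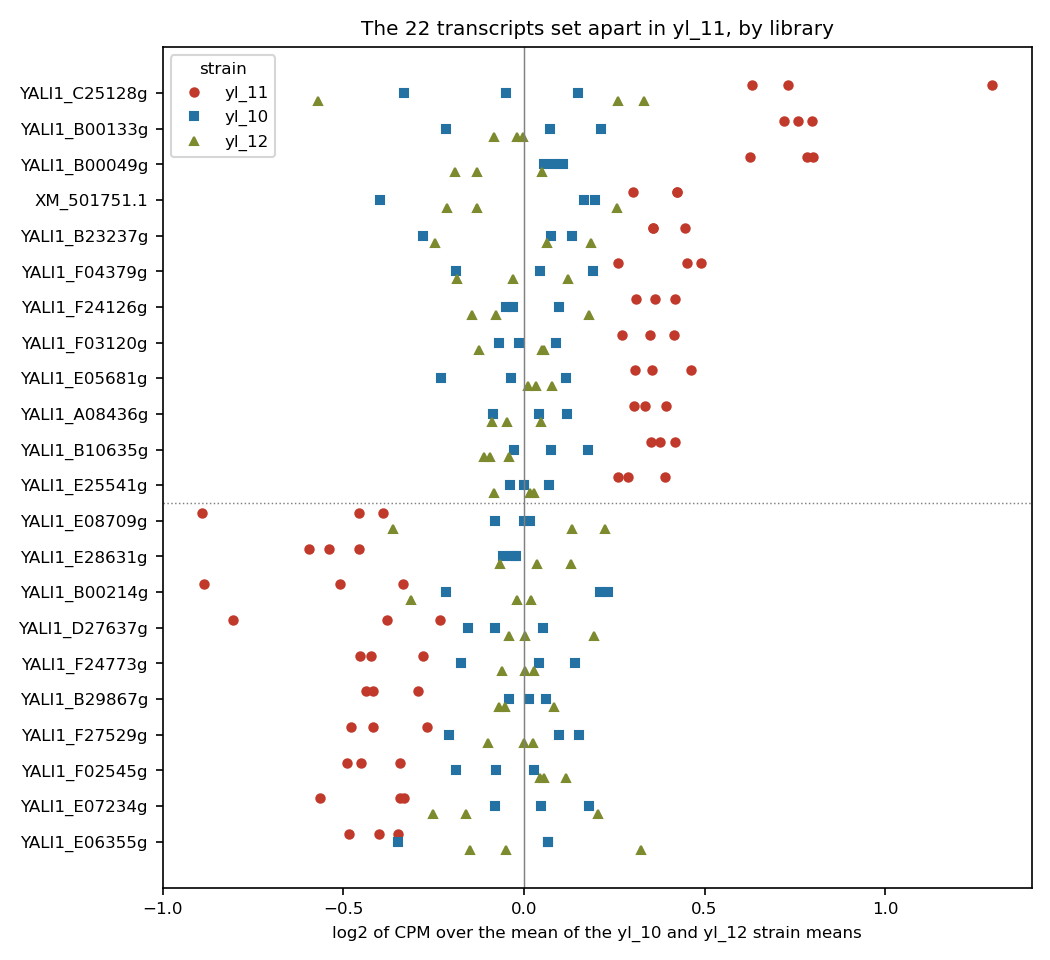
Level of each of the 22 members in every library, as log2 of CPM over the mean of the yl_10 and yl_12 strain means, with yl_11 as red circles, yl_10 as blue squares and yl_12 as green triangles. Members above the dotted line were higher in yl_11 and those below it lower. The gap between yl_11 and the other libraries is widest for YALI1_B00049g and YALI1_B00133g and is nearly closed for YALI1_E06355g, YALI1_B00214g and YALI1_E08709g.

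Among the lower members, YALI1_E28631g (XM_504335.1, 963 bp) was the most evenly separated. It had 48.6, 46.8 and 51.5 CPM in yl_11, against 67.9, 69.6 and 69.2 CPM in yl_10 and 77.4, 72.5 and 67.5 CPM in yl_12. Its differences were -0.49 from yl_10 and -0.56 from yl_12 on the log2 scale, with a gap of 0.39 between the highest yl_11 library and the lowest of the others.

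YALI1_E08709g (XM_503660.1, 1689 bp) had 31.8, 45.1 and 43.0 CPM in yl_11, against 59.1, 59.7 and 55.9 CPM in yl_10 and 69.0, 64.7 and 45.9 CPM in yl_12. Its differences of -0.56 and -0.58 made it the only lower member past 0.5 from both strains, yet yl_12 replicate 3 was only 0.03 above the nearest yl_11 library on the log2 scale. YALI1_B00214g (XM_500338.1, 1245 bp) had 39.9, 51.8 and 58.5 CPM in yl_11, against 86.7, 85.4 and 63.5 CPM in yl_10 and 74.7, 72.7 and 59.4 CPM in yl_12. Replicate 3 of yl_11 and replicate 3 of yl_12 were 0.02 apart here, the differences were -0.65 and -0.47, and yl_10 was 0.18 above yl_12, close to the limit of 0.2.

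**Figure D3:**
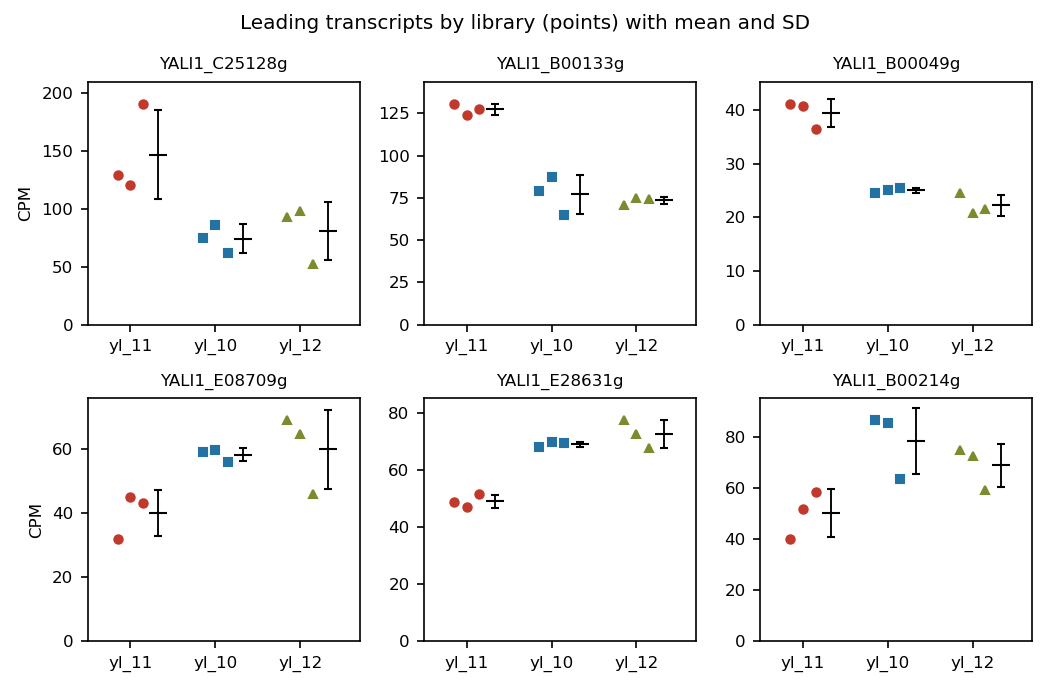
CPM of the 3 leading higher members (upper row) and 3 leading lower members (lower row) in each library, with the mean and SD of each strain (n = 3) as a black bar to the right of the points and replicates 1 to 3 in order from left to right within a strain. YALI1_B00133g, YALI1_B00049g and YALI1_E28631g have tight yl_11 libraries, while YALI1_C25128g, YALI1_E08709g and YALI1_B00214g spread widely.

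The other 7 lower members lay at 0.723 to 0.768 of the mean of both strains. YALI1_F24773g (XM_505585.1, 972 bp) was the most abundant per length, at 220 ± 15 FPKM in yl_11, 289 ± 32 FPKM in yl_10 and 285 ± 8.8 FPKM in yl_12. YALI1_F02545g (XM_504870.1, 942 bp) followed at 119 ± 6.3 FPKM in yl_11, 151 ± 11 FPKM in yl_10 and 168 ± 4.4 FPKM in yl_12. YALI1_B29867g (XM_501242.1) had 38.0 ± 2.1 CPM in yl_11, against 49.8 ± 1.8 CPM in yl_10 and 49.1 ± 2.9 CPM in yl_12. Over these 3 transcripts the yl_11 mean was below the others by 0.35 to 0.50 on the log2 scale.

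The remaining 4 were scarce. YALI1_F27529g (XM_505674.1) had 16.8 ± 1.3 CPM in yl_11, against 22.3 ± 2.9 CPM in yl_10 and 21.6 ± 0.96 CPM in yl_12. YALI1_E07234g (XM_503610.1) had 14.2 ± 1.3 CPM in yl_11, against 19.6 ± 1.8 CPM in yl_10 and 18.2 ± 3.2 CPM in yl_12. YALI1_D27637g (XM_503129.1), the longest member at 3240 bp, had 9.94 ± 1.9 CPM in yl_11, against 13.1 ± 0.96 CPM in yl_10 and 14.1 ± 1.2 CPM in yl_12. In that transcript yl_11 replicate 1, at 7.79 CPM, carried much of the difference, and it no longer met the rule without that library.

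YALI1_E06355g (XM_503586.1) had 11.5, 12.65 and 12.2 CPM in yl_11, against 16.9, 16.9 and 12.65 CPM in yl_10 and 15.6, 14.5 and 20.1 CPM in yl_12. Replicate 2 of yl_11 and replicate 3 of yl_10 were thus level, and only the addition of 0.5 to each count set them apart, by 0.0033 on the log2 scale.

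Membership was decided close to the limits for many transcripts. Just inside the threshold of 0.3 were the higher members YALI1_E25541g, at 0.30 from yl_10 and 0.32 from yl_12, and YALI1_B10635g, at 0.31 and 0.46. Just outside were YALI1_B10813g (XM_500630.1), at 0.34 and 0.30, and YALI1_C24850g (XM_501946.1), at 0.30 and 0.49, whose smaller values rounded up to 0.30. On the lower side YALI1_E06355g (-0.34 and -0.45) and YALI1_E07234g (-0.46 and -0.34) were just inside, while YALI1_F12917g (XM_505199.1, -0.29 and -0.39) and YALI1_E02162g (XM_503422.1, -0.29 and -0.32) were just outside. Differences past 0.3 from both strains with the other strains close but overlapping libraries were seen in 3 further higher and 17 further lower features. The separation of the libraries thus removed more candidates on the lower side than the 10 it left. In all of these lower features but YALI1_B18631g, yl_12 replicate 3, which stood apart in its strain, was the lowest library of the other strains.

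The feature of the window that lay furthest below both other strains in yl_11 was no member. YALI1_C00464g (XM_501284.1), named after its values were seen, had 316, 329 and 326 CPM in yl_11, against 931, 900 and 997 CPM in yl_10 and 810, 779 and 779 CPM in yl_12. Its yl_11 libraries were 1.25 below the nearest other library on the log2 scale, more than in any member, and its differences were -1.54 and -1.29. It missed the rule because yl_10 was 0.26 above yl_12. In all, 3 higher and 2 lower features met every other part of the rule and missed this one. The others were YALI1_E24567g, YALI1_C28263g and YALI1_A20370g, higher in yl_11, and YALI1_F02508g, lower in yl_11. The most abundant of them, YALI1_A20370g (XM_500241.1), had 513 ± 30 CPM in yl_11, against 327 ± 75 CPM in yl_10 and 380.1 ± 35 CPM in yl_12.

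The differences and the separation that the rule asks for were also met by 29 features excluded from it by length, abundance or the lack of an accession, 20 higher and 9 lower in yl_11. Of these, 19 had a RefSeq accession, 10 higher and 9 lower, and all but YALI1_F16984g had a mean under 10 CPM. The other 10 carried a running number of the authors and no accession. Of these, 7 had a mean under 10 CPM, 1 was too long, and Novel00075 and Novel00147 were inside the limits of length and abundance and left out for the missing accession alone. Novel00075 had 56.1, 60.6 and 60.1 CPM in yl_11, against 34.3, 31.8 and 31.0 CPM in yl_10 and 31.8, 35.4 and 32.7 CPM in yl_12. Its differences of 0.87 and 0.82 exceeded those of all members but YALI1_C25128g in the smaller of both values. All 10 of these features with a running number were higher in yl_11. They were 2.6% of the 385 such features with any count, against 0.371% of the RefSeq features on the higher side without the limits of length and abundance. Over those 385 the median difference was 0.07 from yl_10 and 0.06 from yl_12, against -0.02 and 0.03 over the RefSeq features, and these shares were not tested against each other. On the higher side the leading RefSeq ones, ranked by the smaller difference, were YALI1_A16392g (XM_500129.1) and YALI1_C03848g (XM_501372.1), with at most 2 and 12 counts in a library. On the lower side YALI1_F25614g (XM_505611.1), YALI1_A20089g (XM_500230.1) and YALI1_F01796g (XM_504849.1) had at most 3, 14 and 15 counts in a library, too few for a fold to be read. The one lower feature of these above 10 CPM was YALI1_F16984g (XM_505337.1), excluded by its coding length of 4671 bp, at 209 ± 16 CPM in yl_11, against 265 ± 12 CPM in yl_10 and 281 ± 39 CPM in yl_12.

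Positions in the genome were not used by the rule. By the gene order of assembly ASM176148v1, 6 members lay on each of the chromosomes 1B, 1E and 1F and 1 on each of 1A, 1C and 1D. Chromosome 1B held 15.3% of the window's features with a locus tag, 1E 23.4% and 1F 21.6%. The 6 on 1B included 3 of the first 5 measured genes with a locus tag on that chromosome, and other genes may lie between them. YALI1_B00049g, the first, and YALI1_B00133g, the third, were higher in yl_11, and YALI1_B00214g, the fifth, was lower.

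The gene between the higher pair, YALI1_B00082g (XM_500335.1), was too scarce for the window and had 3.23, 3.89 and 3.001 CPM in yl_11, against 1.28, 1.20 and 0.853 CPM in yl_10 and 0.846, 0.802 and 0.562 CPM in yl_12. All of its yl_11 libraries were above the other 6, with differences of 1.56 and 2.15. Its levels were near the floor, so the size of these differences should not be read. Its yl_10 and yl_12 means were also not within 0.2 of each other. YALI1_B00198g (XM_500337.1), which separates the higher pair from YALI1_B00214g, had 64.4 ± 2.5 CPM in yl_11, against 66.8 ± 2.1 CPM in yl_10 and 59.9 ± 1.5 CPM in yl_12. The next genes after YALI1_B00214g, YALI1_B00273g and YALI1_B00280g, had differences between -0.11 and -0.01. Higher levels were therefore seen in the first 3 measured genes, the second of them near the floor, and not in the fourth. The lower level of the fifth stood alone.

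**Figure D4:**
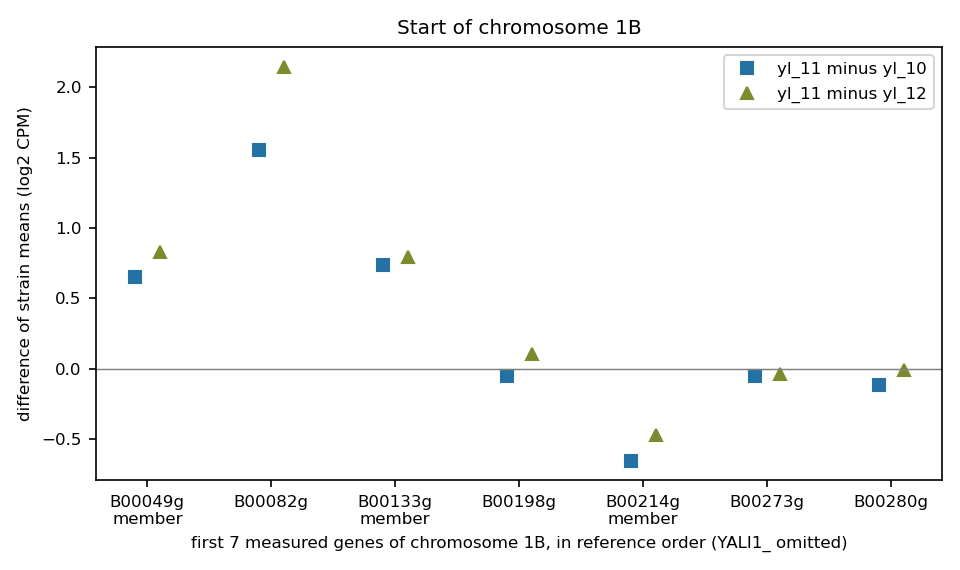
Difference of strain means in log2 CPM, yl_11 minus yl_10 as squares and yl_11 minus yl_12 as triangles, for the first 7 measured genes of chromosome 1B in the order of the reference assembly. The first 3 genes lie above 0, YALI1_B00214g below it, and the others within 0.11 of it.

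The genes that flank the members gave 3 more cases of this kind. Genes were taken as beside a member if next to it among the measured genes with a locus tag, and other genes may lie between. Of 39 such genes, 4 had all yl_11 libraries on one side of the other 6, each on the side of the member it adjoins. Among all measured genes with a locus tag, 3.21% had the yl_11 libraries above and 2.25% below. Besides YALI1_B00082g these were YALI1_F03136g, YALI1_B10813g and YALI1_F02508g. YALI1_F03136g (XM_504886.1), beside YALI1_F03120g, had 6.12 ± 0.32 CPM in yl_11, against 4.72 ± 0.27 CPM in yl_10 and 4.54 ± 1.1 CPM in yl_12. YALI1_B10813g, beside YALI1_B10635g, had 240 ± 13 CPM in yl_11, against 191 ± 31 CPM in yl_10 and 195 ± 18 CPM in yl_12. YALI1_F02508g (XM_504868.1), beside YALI1_F02545g, had 38.0 ± 2.5 CPM in yl_11, against 47.5 ± 3.8 CPM in yl_10 and 55.2 ± 4.3 CPM in yl_12. The other 35 flanking genes differed from the mean of both strains by -0.21 to 0.17 on the log2 scale. Whether neighbouring genes overlap and share reads was not tested, since the labels do not state the use of strand in counting.

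Members covered a wide range of levels and lengths. Mean FPKM over the 9 libraries had a median of 56.7 among the higher members, with a range of 14.6 to 296, and of 32.96 among the lower ones, with a range of 3.82 to 265, against 51.9 for the window. Median coding lengths were 873 bp for the higher members, 1280 bp for the lower ones and 1305 bp for the window. The median SD within yl_10 on the log2 scale was 0.137 for the higher and 0.119 for the lower members, against 0.083 for the window. Within yl_12 it was 0.113 and 0.111, against 0.076, and within yl_11 0.068 and 0.102, against 0.063. These spreads were not tested against each other.

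The libraries that stand apart often held the lowest place of their strain in the lower members, and yl_10 replicate 3 did so in both sets. The rule selected on the order of the libraries, so these places are a description. In the higher members yl_10 replicate 3 was the lowest library of its strain in 10 of 12, and in the lower members in 8 of 10, against 53.1% of the window's features. Its median deviation from the strain mean was -0.14 among the higher and -0.12 among the lower members, against -0.03 over the window. It thus lay away from yl_11 in the first set and toward yl_11 in the second. In the lower members yl_11 replicate 1 was the lowest of its strain in 7 of 10, against 40.2% of the window. There yl_12 replicate 3 was the lowest of its strain in 6 of 10, against 47.7%. In the higher members each of these libraries was the lowest of its strain in 5 of 12, or 41.7%. For each of the 10 lower members the library nearest to yl_11 was yl_10 replicate 3 (5 members) or yl_12 replicate 3 (5 members). The same share over the window was not computed, and both libraries were often the lowest of their strain there.

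The pattern was then read in libraries that the rule had not seen. When yl_11 replicate 1, 2 or 3 was left out and the rule was applied to the other 8 libraries, it found 16, 11 and 18 higher features. The left-out library lay above all 6 libraries of the other strains in 14, 10 and 14 of these, against 12.7%, 13.7% and 10% of the window. On the lower side the rule found 10, 17 and 19 features, and the left-out library lay below all 6 in 8, 12 and 13 of these, against 12.9%, 8.75% and 8.34% of the window. The 6 libraries on the other side of this comparison had been used in the choice. The left-out values are thus only partly independent of it, and part of the excess over the window is built in. The 3 yl_11 libraries may also be technical repeats, so a left-out one is not a separate check of the strain.

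Left-out libraries of the other strains gave shares from 93.3% to 100% on the higher side, the share being that of features in which the library stayed below all 3 yl_11 libraries, against 22%, 24.7% and 35% of the window for yl_10 replicates 1, 2 and 3 and 41.2%, 40.4% and 46.3% for yl_12 replicates 1, 2 and 3. On the lower side the shares were 100%, 90% and 73.3% for yl_10 replicates 1, 2 and 3, against 43.3%, 45.2% and 35.8% of the window. They were 88.9%, 100% and 41.9% for yl_12 replicates 1, 2 and 3, against 28.2%, 28.6% and 20.9%. The lowest share came with yl_12 replicate 3 left out, where 31 lower features were found and 13 held in that library. All 3 yl_11 libraries had been used to choose these features, so a share above that of the window is in large part built into the comparison.

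**Figure D5:**
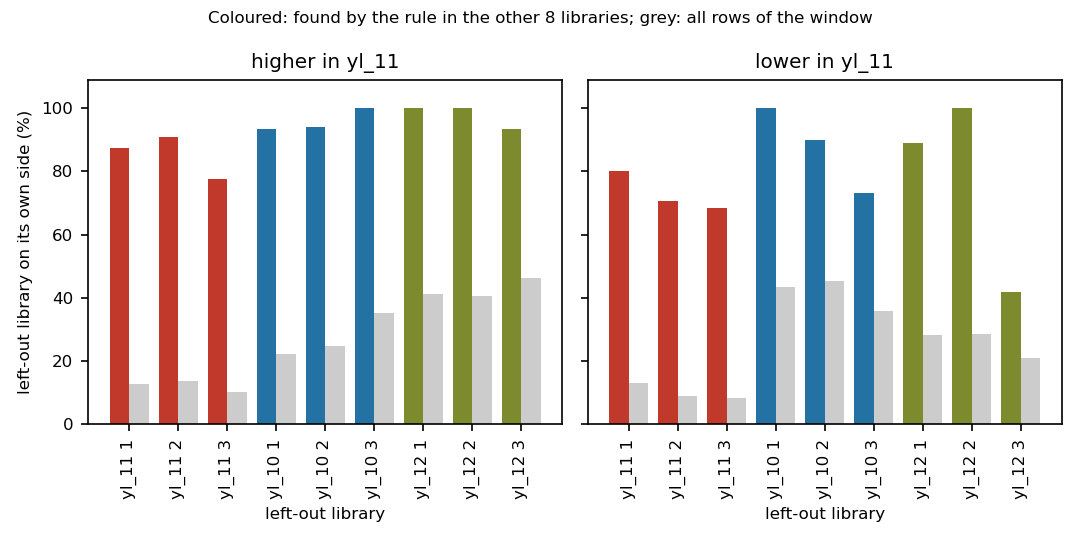
Share of features in which a left-out library lay on its own side of the opposing libraries, for features found by the rule in the other 8 libraries (coloured bars: red yl_11, blue yl_10, green yl_12) and for all features of the window (grey bars), higher on the left and lower on the right. Coloured bars exceed grey ones for each library, in part because the opposing libraries had chosen the features, and the lowest coloured bar is yl_12 replicate 3 on the lower side, at 41.9%.

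The strain contrasts behind the rule were also fitted across all features with the quasi-likelihood test of edgeR, in which 6147 features passed the expression filter, all 22 members among them. At an adjusted p below 0.05, 8 of 12 higher members were called against yl_10, where 1.68% of all features were called higher, and 8 against yl_12, where 3.84% were. Of the lower members 5 of 10 were called against yl_10 (2.49% of all features called lower) and 6 against yl_12 (3.2%). Calls in both contrasts were made for 7 higher members (0.293% of all features) and 5 lower ones (0.211%). The rule used these contrasts and both share the yl_11 libraries, so the counts are no evidence about the members.

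YALI1_C25128g, YALI1_B23237g and XM_501751.1 on the higher side and YALI1_B00214g, YALI1_E08709g, YALI1_E06355g and YALI1_E07234g on the lower side were called in neither contrast, and the first of these had the largest difference of all members. YALI1_F04379g and YALI1_D27637g were called against yl_12 alone and YALI1_E05681g against yl_10 alone, which does not show that the contrasts differ. The 12 called in both were YALI1_B00133g, YALI1_B00049g, YALI1_F03120g, YALI1_E25541g, YALI1_B10635g, YALI1_A08436g, YALI1_F24126g, YALI1_B29867g, YALI1_E28631g, YALI1_F27529g, YALI1_F24773g and YALI1_F02545g.

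The number of calls changed when single libraries were left out. The share of all features called was not computed for these fits, so the counts are no evidence about the members. For higher members against yl_10 the count rose from 8 to 11 without yl_12 replicate 3 and fell without each of the others. Leaving out yl_10 replicate 1 or yl_11 replicate 2 left 3 higher members called against yl_10, leaving out yl_10 replicate 2, yl_11 replicate 1 or yl_11 replicate 3 left 4, and leaving out yl_12 replicate 2 left 5. Against yl_12 there were 5 calls when yl_11 replicate 1, yl_11 replicate 3 or yl_12 replicate 1 was dropped, and 4 when yl_11 replicate 2 or yl_12 replicate 2 was. For lower members against yl_10 there were 2 calls after dropping yl_10 replicate 1 or yl_11 replicate 2, 3 after dropping yl_11 replicate 1 and 8 after dropping yl_12 replicate 3.

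The members that met the rule in each of the 9 fits with 1 library left out were 2 higher ones, YALI1_B00133g and YALI1_F24126g, and 5 lower ones, YALI1_E28631g, YALI1_E08709g, YALI1_B29867g, YALI1_F27529g and YALI1_F24773g. The same 7 also met it with the libraries that stand apart removed together, with TMM factors or DESeq2 size factors, with 2 added per count, without the limits of length and abundance and with a replicate block. At a minimum difference of 0.4, 4 of the 7 were lost and YALI1_B00133g, YALI1_E28631g and YALI1_E08709g were left. TMM factors and DESeq2 size factors each lost 3 higher members, YALI1_E05681g, XM_501751.1 and YALI1_E25541g, and 1 lower member, YALI1_F02545g. YALI1_B00049g, with the widest gap, was lost without yl_12 replicate 1 and under none of the other settings. YALI1_E25541g was lost in 4 of the 9 fits with 1 library left out. Leaving out libraries cannot undo the separation that the rule asked for, so only the limits on strain means could fail there. Being kept is thus no check of the separation. YALI1_E08709g was kept under every setting, although its gap was 0.03 and it was called in neither contrast.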

How the data were processed

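The authors deposited read counts and FPKM values for 6366 features in 9 libraries. The deposited counts are raw whole numbers. The deposited FPKM values are counts scaled to length and library total. Per the labels' protocols, both ends of the fragments were read for 150 bp. The submitters' processing notes list HTSeq 0.6.1 and DESeq 1.18.0 without saying what each did. Aligner, build, annotation and strand setting: not given in the sources used here. Lengths were computed from counts and FPKM. Accessions were matched without version to the RefSeq table of ASM176148v1, with 5430 of 5959 matched. Its build may differ from that of the authors, so it gave tags and gene order only.

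The members and lists were chosen with earlier results of these data known. All named members come from the rule itself, and flanking, near-threshold and out-of-window features were named by position or size. Counts were fitted with edgeR 4.0.16 in R 4.3.3 (TMM, default filter, robust quasi-likelihood test, strain as the only term, all 9 libraries) with Benjamini-Hochberg adjustment, and the script was tested on simulated data. Alternatives used DESeq2 1.42.0, limma 3.58.1 on log2(FPKM + 1), other scalings and filters, a replicate block and left-out libraries. Promoter and protein features were not analysed here. Whether replicate numbers pair libraries was not settled. Deviations of same-numbered libraries correlated between -0.53 and 0.40, and such values cannot exclude a shared culture or batch.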

Additional observations from a re-analysis of the deposited data

How the results depend on the processing

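The counts of 12 higher and 10 lower members were within 1.5 times of these values under TMM factors, DESeq2 size factors, 2 added per count and a replicate block (12 higher and 14 lower). The membership changed more: under TMM factors and under DESeq2 size factors 9 of the 12 higher and 9 of the 10 lower members were among the features found. A minimum difference of 0.4 left 3 higher and 4 lower members, and without the limits of length and abundance there were 22 and 19 RefSeq features. Without the 3 libraries that stand apart 39 lower features were found. With 1 library left out the rule found 8 to 18 higher and 8 to 31 lower features, with lower counts of 17 without yl_11 replicate 2, 19 without yl_11 replicate 3 and 31 without yl_12 replicate 3. The lower count was 8 without yl_12 replicate 2 and 9 without yl_10 replicate 1. The cause of these changes was not tested. Calls of higher members ranged from 3 to 11 against yl_10 and from 4 to 9 against yl_12 in these fits, and calls of lower members from 2 to 8 and from 4 to 8. A replicate block gave 5 higher members against yl_10 and 5 against yl_12, and whether the numbers pair libraries was not settled. DESeq2 called 8 lower members against yl_10, and 9 were called without the 3 libraries that stand apart. Shares of all features called were not computed for these alternative fits. The log2 difference of each of the 22 members kept its sign in each of 16 alternative fits. In each it moved by less than its SD within strains (log2 CPM, variances averaged over yl_11 and the mean of the other strains). The rule had asked every yl_11 library to lie beyond all libraries of the other strains. Leaving out libraries or rescaling them could therefore hardly change a sign. The moves were set against the spread of the same libraries. The kept signs and small moves are thus no check of the members.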
